A study of Danio rerio with 6 samples.

Results

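The germ cell genes ddx4 (vasa; ENSDARG00000014373), dazl (ENSDARG00000036214) and piwil1 (ziwi; ENSDARG00000041699) were examined in ovarian follicles of wild-type and ybx1-/- zebrafish. They were chosen by name and identifier as germ cell RNA regulators, and are 3 of the 32057 genes in the deposited tables. All 3 passed the filter on low counts, as did 17385 genes in all. Of the 3, dazl was lower in the mutant by 24.9%, and neither ddx4 nor piwil1 passed the test.

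RNA was sequenced from pre-vitellogenic follicles, the growing follicles that precede yolk uptake, of AB strain zebrafish. The 3 control libraries came from ybx1+/+ fish (wild type) and the 3 others from ybx1-/- fish (mutant). Ybx1 is a cold-shock-domain protein that binds mRNA. The kind of mutation, the age of the fish and the number of fish behind a library are not given in the sources used here, so the p-values measure the spread between these libraries, which may be partly technical.

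The proteins of these genes act on RNA in germ cells. Ddx4 is a DEAD-box RNA helicase of germ granules, the cytoplasmic bodies in which germ cells gather RNA and protein, and its RNA is a widely used germ cell marker. Dazl is an RNA-binding protein that promotes the translation of germ cell mRNAs, and in zebrafish oocytes its mRNA gathers in the Balbiani body with other germ plasm components. Piwil1 is an Argonaute-family protein that binds piRNAs, small RNAs that silence transposons in the germ line, and piwil2 (zili) encodes its paralog.

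Library totals ran from 16600019 to 37764782 counts, and the TMM scaling factors from 0.991 to 1.01. Levels are given as CPM, counts scaled to a common library total with TMM. Values of single libraries are listed in the order of replicates 1, 2 and 3. Differences are log2 fold changes of mutant over wild type from edgeR's quasi-likelihood test, and a gene was called at a Benjamini-Hochberg adjusted p under 0.05 over all genes tested. By this rule 33.9% of the genes tested were called, with 18.6% up and 15.3% down in the mutant, around a median log2 fold change of 0.0066 over all genes tested. A member that is called is therefore no rarity in this comparison.

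The targeted gene kept most of its RNA. The level of ybx1 was 275, 263 and 301 CPM in wild type, against 253, 243 and 229 CPM in the mutant. The groups did not overlap, and the log2 fold change was -0.21 (SE 0.06, edgeR adjusted p = 0.0244). This call was lost without wild-type replicate 1 (adjusted p = 0.0530), wild-type replicate 3 (0.0995), mutant replicate 2 (0.0706) or mutant replicate 3 (0.0840), and with upper-quartile factors (0.0527). Counts per gene do not show the mutation itself, so the RNA level of ybx1 is no check of the genotype labels.

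The helicase gene ddx4 gave 7540, 5206 and 6843 counts in wild type, against 7725, 5425 and 10783 counts in the mutant. Its level in CPM was 282, 312 and 285 in wild type, against 262, 272 and 284 in the mutant. Wild-type replicate 2 was the highest library and mutant replicate 1 the lowest. The groups overlapped by a narrow margin, as mutant replicate 3 lay above wild-type replicate 1.

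The mean of ddx4 was 293 ± 16.3 CPM in wild type, against 273 ± 10.9 CPM in mutant libraries (SD, n = 3 each). This is a log2 fold change of -0.10 (SE 0.05), with an edgeR adjusted p of 0.184. The 95% interval of the difference reached from 14.3% lower to 1.47% higher in the mutant. The test therefore neither called a decrease nor excluded one of up to 14.3%. Of the genes tested, 26.4% had a smaller absolute log2 fold change than ddx4.

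The translation regulator dazl gave 3514, 2237 and 2966 counts in wild type, against 3088, 1850 and 3577 counts in the mutant. In CPM its level was 132, 134 and 123 in wild type, against 105, 92.9 and 94.3 in the mutant. Each mutant library lay below each wild-type library, and mutant replicate 1 was the nearest to wild type. A decrease without overlap was found for 22.5% of all genes tested, and absence of overlap in either direction for 48.1%.

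The mean of dazl was 130 ± 5.58 CPM in wild type, against 97.4 ± 6.55 CPM in mutant libraries (SD, n = 3 each). The log2 fold change was -0.41 (SE 0.06), with an edgeR adjusted p of 0.000655, and it was the same in direction in all 3 mutant libraries. The 95% interval of the decrease ran from 17.3% to 31.7%. Among all called genes, the median absolute log2 fold change was 0.59, and 35.8% changed by less than dazl. In whole follicles, fewer cells with a transcript and less of it per cell cannot be told apart.

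The Argonaute-family gene piwil1 gave 2112, 1177 and 1759 counts in wild type, against 1978, 1500 and 2654 counts in the mutant. In CPM its level was 79.1, 70.5 and 73.1 in wild type, against 67.2, 75.3 and 70.0 in the mutant. The libraries of both genotypes were interleaved: mutant replicate 2 exceeded all wild-type libraries but replicate 1.

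The mean of piwil1 was 74.2 ± 4.44 CPM in wild type, against 70.8 ± 4.14 CPM in mutant libraries (SD, n = 3 each). It had a log2 fold change of -0.070 (SE 0.07), with an edgeR adjusted p of 0.463. The 95% interval reached from 14.2% lower to 5.79% higher in the mutant. Of the genes tested, 18.9% had a smaller absolute log2 fold change.

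**Figure D1:**
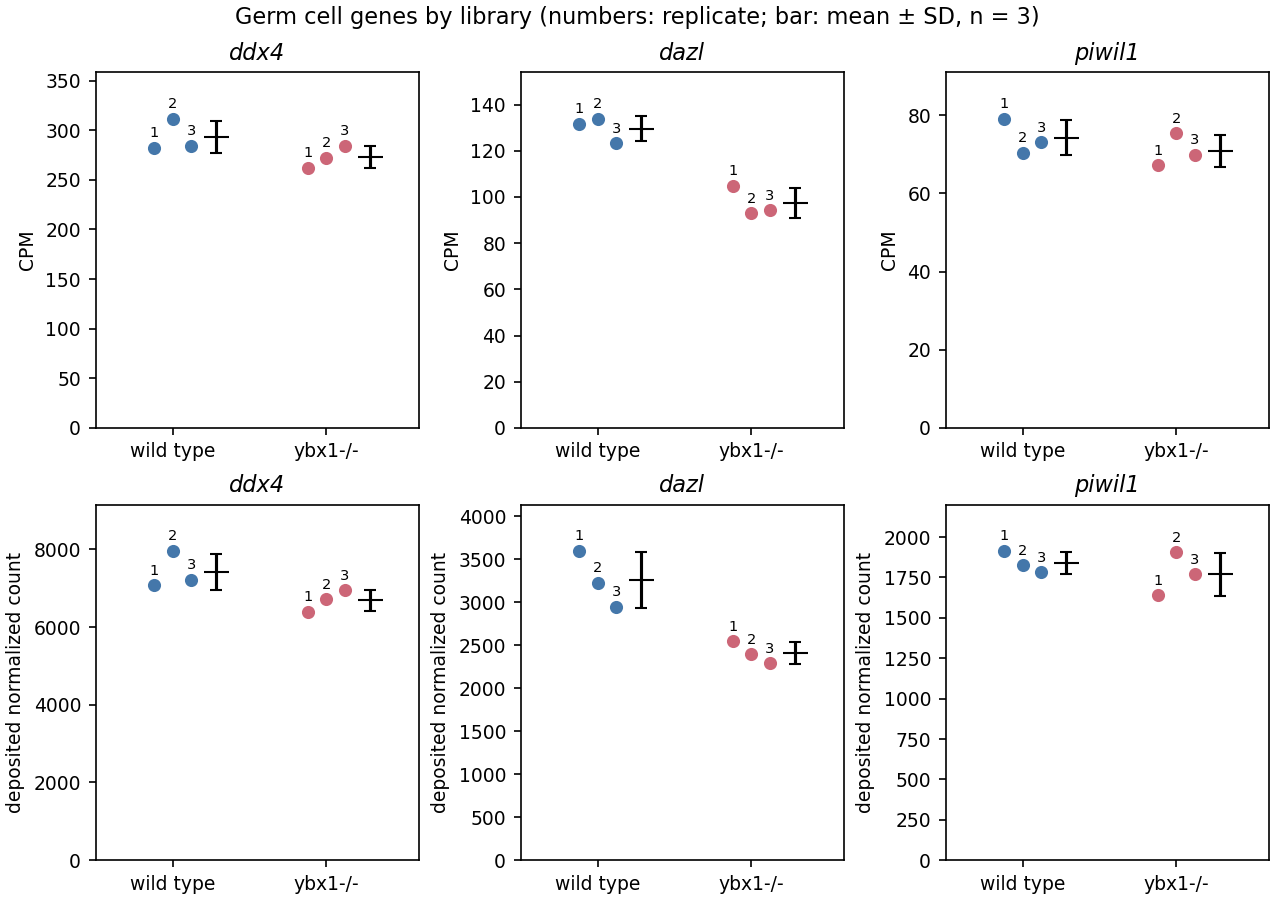
Levels of ddx4, dazl and piwil1 in each library, as CPM (upper row) and as deposited normalized counts (lower row), by genotype; numbers mark the replicate and bars the mean ± SD (n = 3). The dazl values of the mutant, 92.9 to 105 CPM, lie below those of wild type, 123 to 134 CPM, while those of piwil1 overlap on either scale.

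The libraries of one genotype differed by more than counting alone would give. The error of a single count, taken as its square root, was 0.963% to 1.39% of the ddx4 count, 1.67% to 2.32% of the dazl count and 1.94% to 2.91% of the piwil1 count. The coefficient of variation of CPM between libraries (wild type, then mutant) was 5.56% and 4.0% for ddx4, 4.30% and 6.73% for dazl, and 5.98% and 5.85% for piwil1.

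The deposited normalized table gave the same order of genotypes. For dazl its values were 3595, 3227 and 2945 in wild type, against 2548, 2393 and 2287 in the mutant, again without overlap. For ddx4 they were 7081 to 7961 in wild type, against 6400 to 6947 in the mutant, so that the narrow overlap seen in CPM was absent on this scale. For piwil1 they were 1783 to 1914 in wild type, against 1639 to 1905 in the mutant, with overlap.

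The division from count to normalized value used a factor that differed between genes. Relative to the median factor of the library, the factor of dazl was 0.916 in wild-type replicate 1 and 0.965 to 1.04 in the other libraries. That of ddx4 was 0.977 to 0.998 in wild type, against 1.01 to 1.02 in the mutant, and that of piwil1 was 0.963 to 1.03 over all libraries. With these factors as offsets in edgeR, the log2 fold change was -0.15 for ddx4 (adjusted p = 0.0884), -0.43 for dazl (adjusted p = 0.00341) and -0.057 for piwil1 (adjusted p = 0.578). The ddx4 factors split by genotype, and its fold change was the one they moved most.

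The members were then compared within each library, where the scaling of the library cancels. A ratio of counts between genes also depends on their transcript lengths, so only its change between genotypes was read. The ratio of ddx4 to dazl was 2.15, 2.33 and 2.31 in wild type, against 2.5, 2.93 and 3.01 in the mutant. Every mutant library was higher, by a mean of 0.31 on the log2 scale. The factors of the deposited normalized values differ between genes, so they do not cancel in a ratio. From those values the ratio of ddx4 to dazl was 1.97, 2.47 and 2.45 in wild type, against 2.51, 2.80 and 3.04 in the mutant. The genotypes stayed separate there, but wild-type replicate 2 lay only just below mutant replicate 1.

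The ratio of dazl to piwil1 was 1.66, 1.90 and 1.69 in wild type, against 1.56, 1.23 and 1.35 in the mutant. Every mutant library was lower, with a mean log2 difference of -0.35. The ratio of ddx4 to piwil1 was 3.57, 4.42 and 3.89 in wild type, against 3.91, 3.62 and 4.06 in the mutant, with interleaved libraries and a mean log2 difference of -0.033. That last sign turned without wild-type replicate 2 (0.050) and without mutant replicate 2 (0.014).

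The ratio of piwil1 to its paralog piwil2 was added after the values had been seen. It was 0.511, 0.451 and 0.482 in wild type, against 0.516, 0.583 and 0.544 in the mutant, higher in the mutant by a mean of 0.19 on the log2 scale. The groups did not overlap, although mutant replicate 1 lay only just above wild-type replicate 1.

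Over these 4 ratios, a two-sided exact permutation test across libraries gave p = 0.1 for ddx4 to dazl, for dazl to piwil1 and for piwil1 to piwil2, and p = 1 for ddx4 to piwil1. The value of 0.1 is the smallest that 3 against 3 libraries allow, and 0.05 is out of its reach. For dazl against ddx4 and piwil1 the genotypes were separate, but no test of that difference was passed.

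**Figure D2:**
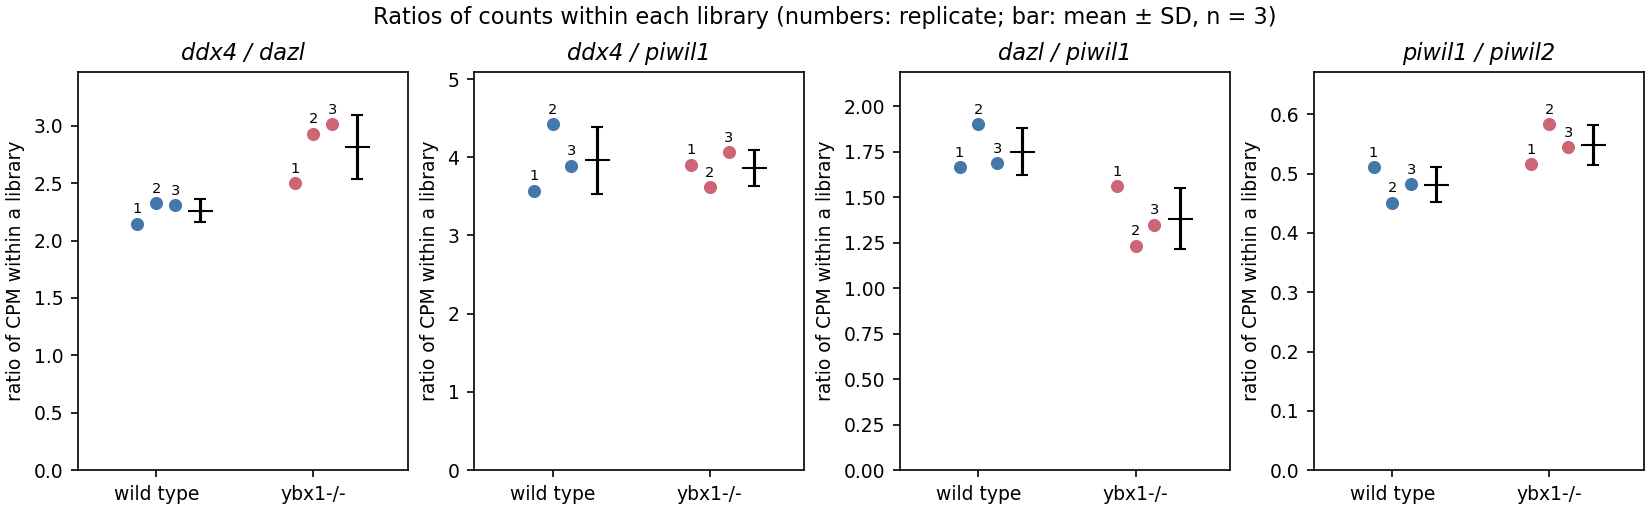
Ratio of CPM between gene pairs within each library, by genotype; numbers mark the replicate and bars the mean ± SD (n = 3). The ddx4 to dazl ratio is 2.15 to 2.33 in wild type, against 2.5 to 3.01 in the mutant, and the ddx4 to piwil1 ratio overlaps between genotypes.

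**Figure D3:**
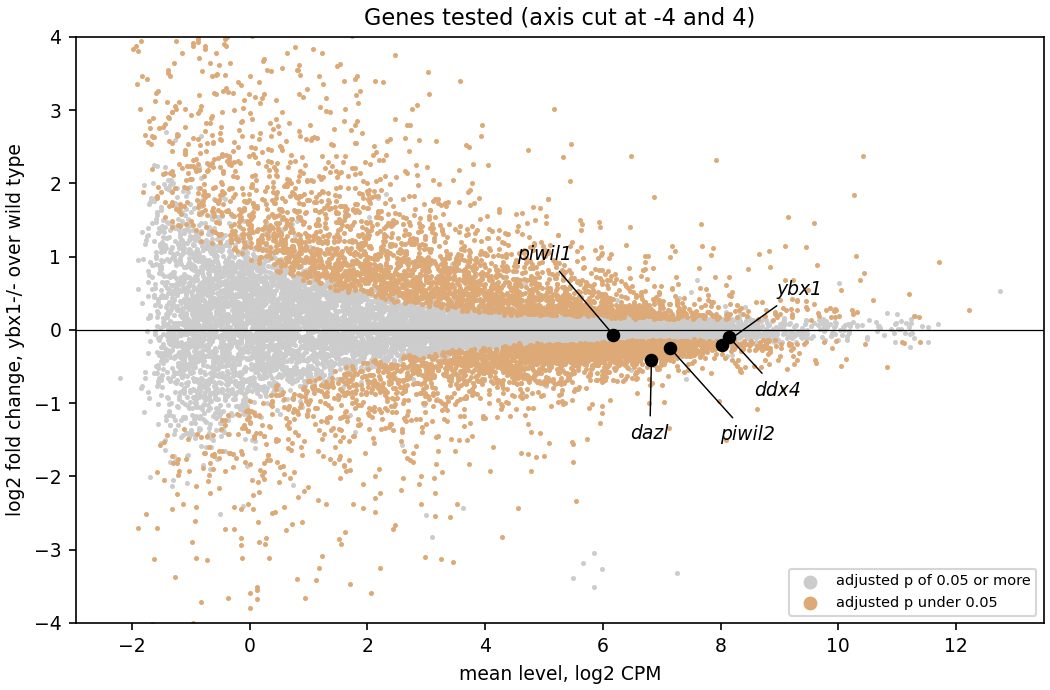
Log2 fold change of mutant over wild type against mean log2 CPM for the 17385 genes tested, with called genes in orange, values beyond the ends of the axis not shown, and ddx4, dazl, piwil1, piwil2 and ybx1 in black. The members sit among abundant genes near 0, with dazl at -0.41 the lowest of the 5 marked genes.

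Genes of the same cellular machinery were described next, from lists matched by symbol. In the germ plasm and germ granule list 18 of 23 symbols were matched, to 19 identifiers, all of them tested. Of these, 5 (26.3%) fell, 0 rose and 14 were not called, with a median log2 fold change of -0.017. For comparison, 33.9% of all genes tested were called and 15.3% fell. Besides dazl, the genes of the list that fell were piwil2, ca15b, tdrd7a and tdrd1. Without mutant replicate 2 the calls dropped to 2.

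The Argonaute-family gene piwil2 fell in all mutant libraries. Its level was 155, 156 and 152 CPM in wild type, against 130, 129 and 129 CPM in the mutant, a log2 fold change of -0.25 (SE 0.05, edgeR adjusted p = 0.00179). The decrease was 16.1%. The genes ca15b, known in zebrafish for its germ plasm RNA, and tdrd7a, a Tudor-domain gene of germ granules, fell by 12.5% and 11.9% (edgeR adjusted p = 0.0104 and 0.0101). Both of these calls were lost without mutant replicate 2 (adjusted p = 0.0506 and 0.0514).

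Of the 14 genes of the germ plasm and germ granule list that were not called, 4 picked after their values had been seen are given here. The log2 fold change was 0.046 for buc, the Balbiani body organiser of zebrafish (edgeR adjusted p = 0.468), 0.15 for the RNA-binding gene nanos3 (0.0963) and -0.034 for dnd1, whose protein protects germ cell mRNAs (0.734). For tdrd6, a Tudor-domain gene whose protein binds Buc in zebrafish, mutant replicate 1 stood apart. Its level was 125, 148 and 131 CPM in wild type, against 309, 122 and 111 CPM in the mutant (adjusted p = 0.326).

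The piRNA pathway list had 20 genes tested (of 26 symbols), of which 6 fell, 2 rose and 12, ddx4 and piwil1 among them, were not called. The called share was 40.0%, against 33.9% of all genes tested, and the median log2 fold change of the list was -0.11. Among the called genes, the largest decreases were those of tdrd15 and rnf17, which encode Tudor-domain proteins, followed by piwil2 and tdrd7a. Without mutant replicate 2 the list had 4 calls.

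The level of rnf17 was 208, 212 and 215 CPM in wild type, against 168, 165 and 177 CPM in the mutant. All mutant libraries were lower, and the log2 fold change was -0.32 (SE 0.05, edgeR adjusted p = 0.000644). The log2 fold change of tdrd15 was of similar size, -0.33 (SE 0.10, adjusted p = 0.0254), but this call was lost without wild-type replicate 2, mutant replicate 1 or mutant replicate 2, with adjusted p-values of at most 0.0860.

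The genes that rose were tdrd5, a Tudor-domain gene needed for transposon silencing in mice, and pld6, whose mitochondrial protein acts in piRNA formation. The level of tdrd5 was 103, 103 and 97.7 CPM in wild type, against 145, 136 and 133 CPM in the mutant, a log2 fold change of 0.45 (SE 0.05, edgeR adjusted p = 0.000148). The level of pld6 was 22.7 ± 1.12 CPM in wild type, against 28.5 ± 1.06 CPM in mutant libraries (SD, n = 3 each), with a log2 difference of 0.33 (edgeR adjusted p = 0.00501). The pathway thus held calls in both directions.

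The lists share 7 genes and together hold 32, of which 8 fell, 2 rose and 22 were not called. The median log2 fold change of the 32 was -0.042. Of the 32, 10 were called, where 33.9% of all genes tested were called and 15.3% fell.

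**Figure D4:**
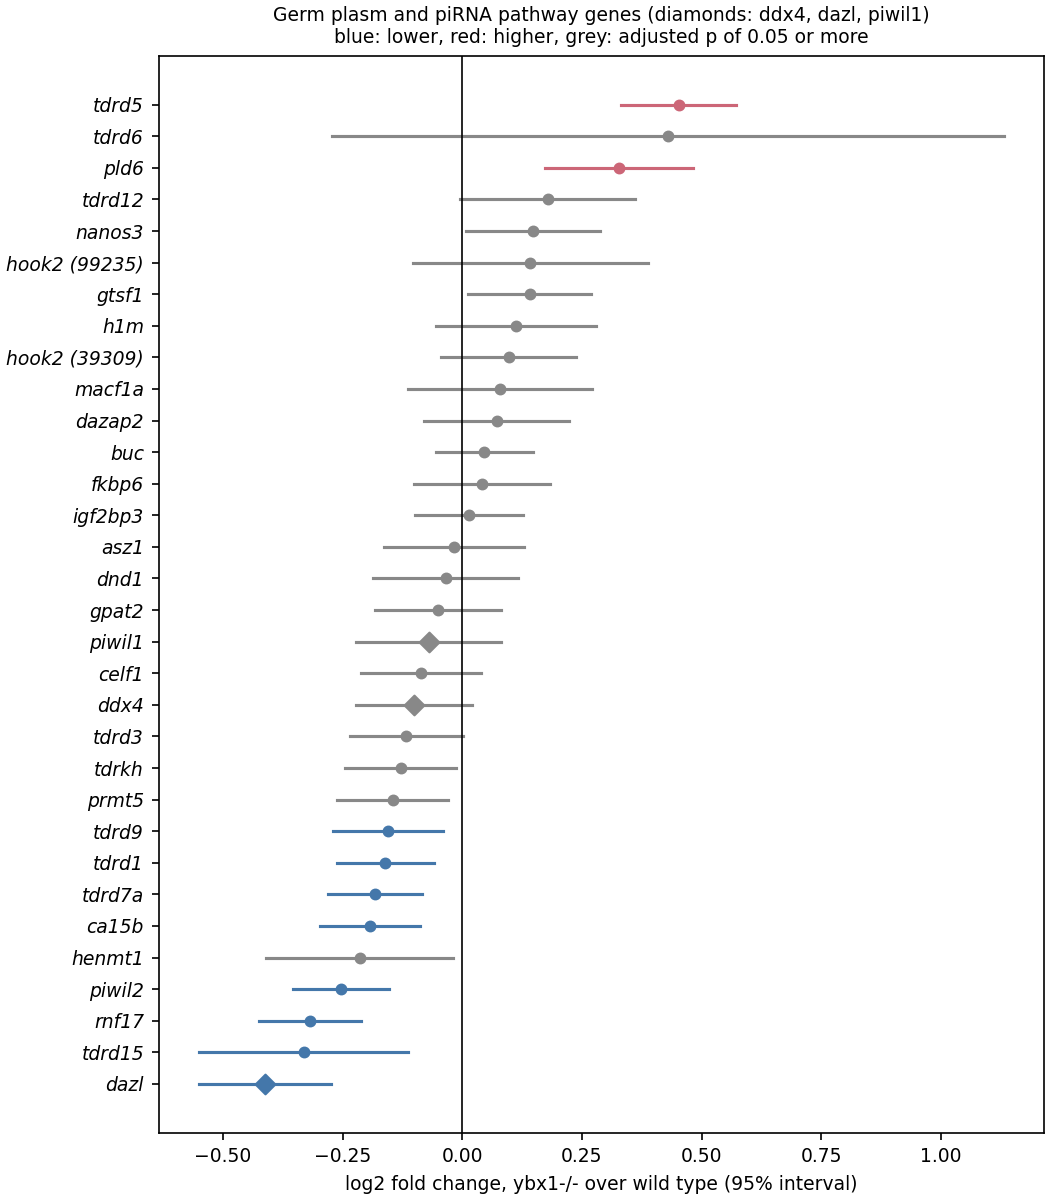
Log2 fold change of mutant over wild type with its 95% interval for the 32 genes of the germ plasm and piRNA lists; diamonds mark ddx4, dazl and piwil1, blue marks genes that fell, red genes that rose and grey those not called. The lowest value is that of dazl (-0.41) and the highest that of tdrd5 (0.45).

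Dazl is known in frogs and mice to act through poly(A)-binding proteins, and a list of maternal mRNA regulators held 40 genes tested. Of these 7 fell, 3 rose and 30 were not called, with a median log2 fold change of -0.028. The genes that fell include ybx1, the targeted gene, whose call was lost under several settings as given above. The called share of the list was 25.0%, against 33.9% of all genes tested. Among the called genes, the largest decreases after dazl were those of pabpn1l, an oocyte poly(A)-binding protein gene, eif4e1b, an oocyte form of the cap-binding factor, and tent2, a cytoplasmic poly(A) polymerase gene. Their log2 fold changes were -0.35, -0.34 and -0.29 (edgeR adjusted p = 0.000368, 0.000663 and 0.00109).

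The regulators that rose were pabpc1b, a cytoplasmic poly(A)-binding protein gene, cpeb4b, a gene of the CPE-binding family, and khdrbs1a, an RNA-binding protein gene. Their log2 fold changes were 0.45, 0.29 and 0.23 (edgeR adjusted p = 0.00959, 0.0294 and 0.00527). The call of cpeb4b was lost without wild-type replicate 1, mutant replicate 2 or mutant replicate 3, with adjusted p-values of at most 0.101.

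Markers of oocytes served as a check of the labelled tissue. All 22 genes of that list had counts in every library, and their summed level was 20699 to 22456 CPM in wild type, against 21153 to 23736 CPM in the mutant. Of the 22 genes, 2 fell, 1 rose and 19 were not called, with a median log2 fold change of 0.027. The called share was 13.6%, against 33.9% of all genes tested. The calls were the transcription factor gene foxr1 (log2 fold change -0.55, edgeR adjusted p = 0.000830), the egg coat gene zp2l2 (-0.22, adjusted p = 0.0285) and the nucleoplasmin gene npm2a (0.37, adjusted p = 0.00339). The zp2l2 call was lost without wild-type replicate 1, mutant replicate 2 or mutant replicate 3 and with upper-quartile factors.

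When the geometric mean of these oocyte markers was used as the scaling factor of each library, the members kept their values. With it, ddx4 was at a log2 fold change of -0.096 (edgeR adjusted p = 0.395), dazl at -0.41 (0.00174) and piwil1 at -0.061 (0.602). This scaling was chosen after the data had been seen. The factor follows the mean log count of the markers, to which their median log2 fold change of 0.027 is only a guide. That median and the shifts of the members were both small, so this scaling was a weak check.

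Markers of early germ cells, the stages before follicle growth, were also examined. Of 8 genes tested, foxl2l and ddx43 fell, eno4 rose and 5 were not called, and nanos2, a marker of germ line stem cells, had no count in any library. The level of foxl2l, a forkhead transcription factor gene of early zebrafish oocyte progenitors, was 5.96, 5.51 and 5.45 CPM in wild type, against 1.22, 1.26 and 0.843 CPM in the mutant. Its log2 fold change was -2.37 (SE 0.20, edgeR adjusted p = 1.73e-05). The helicase gene ddx43 also fell, with a log2 fold change of -0.32 (adjusted p = 0.00255). The low gene eno4 was at 0.185 ± 0.048 CPM in wild type, against 0.621 ± 0.15 CPM in the mutant (SD, n = 3 each; edgeR adjusted p = 0.0252). No gene of the list was called higher with the DESeq2 test, with the replicate block or at an adjusted p under 0.01. The same held without wild-type replicate 1, wild-type replicate 3, mutant replicate 1 or mutant replicate 2. It also held with no filter beyond 1 count in all and with a filter of 1 CPM in at least 3 libraries. Under that last filter 6 genes of the list were tested. The called share of the list was 37.5%, against 33.9% of all genes tested. Its summed level was 207 to 212 CPM in wild type, against 186 to 194 CPM in the mutant. The most abundant genes in that sum were ddx43, sall4 and nanos3, the last also in the germ plasm list. Their means went from 99.0 to 79.1 CPM, from 58.2 to 59.4 CPM and from 40.5 to 44.9 CPM. The sum was therefore not read as a measure of early germ cells. Of the 8 genes tested, 5 had a positive and 3 a negative log2 fold change, with a median of 0.074. The part of these markers in the decrease of dazl was not tested.

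Genes of meiosis changed in both directions. Of 30 genes matched, 10 were too low to test. Of the 20 tested, 7 rose, 3 fell and 10 were not called, with a median log2 fold change of 0.53. The called share was 50%, where 33.9% of all genes tested were called, 18.6% rose and 15.3% fell. The summed level of the 30 genes matched overlapped between genotypes. It was 219 to 240 CPM in wild type, against 217 to 246 CPM in the mutant. The synaptonemal complex gene sycp1 rose from 11.9 ± 1.16 to 27.1 ± 6.04 CPM (SD, n = 3 each), with a log2 difference of 1.19 (edgeR adjusted p = 0.000255), and mei4, a gene of meiotic DNA break formation, rose by 1.03 on the log2 scale (adjusted p = 0.000604). The recombination gene mnd1 fell from 34.7 ± 1.29 to 23.1 ± 2.45 CPM (log2 fold change -0.59, adjusted p = 0.000508). The gene syce2, of the synaptonemal complex, also fell (-0.56, adjusted p = 0.0349), a call lost under 7 of 17 alternatives, the DESeq2 test among them. The telomere attachment gene terb1 rose by 1.46 on the log2 scale from a low level of 0.756 CPM (adjusted p = 0.00317). The crossover gene tex11 was near 0 in wild type, at 0, 0.120 and 0.125 CPM, against 1.29, 0.603 and 1.19 CPM in the mutant (adjusted p = 0.00263).

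Markers of other cells in a follicle preparation also differed between genotypes, and those of granulosa cells and of stroma and vessels had counts in every library. For comparison, 33.9% of all genes tested were called and 18.6% rose. In the granulosa cell list 9 of 17 symbols were matched, and cyp19a1a, foxl2a and foxl2b were among those that were not. Of 10 granulosa cell genes tested, 5 rose (inha, hsd17b1, wt1b, gsdf and one of the identifiers named inhbb) and 0 fell. The wt1b call, from 0.521 CPM in wild type, was lost without mutant replicate 1 (edgeR adjusted p = 0.0515). The summed level of the granulosa list was 82.8 to 92.4 CPM in wild type, against 115 to 119 CPM in the mutant. In it inha, an inhibin subunit gene, was up by 0.86 on the log2 scale (edgeR adjusted p = 0.000179). Of 10 stroma and vessel genes tested, 7 rose and 0 fell. Their summed level was 88.0 to 99.4 CPM in wild type, against 151 to 156 CPM in the mutant, with the collagen genes col1a1a and col1a2 up by 1.09 and 1.32 (adjusted p = 2.86e-06 and 4.90e-06).

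Of 8 theca and interstitial genes tested, 2 rose (cyp17a1 and hsd3b1) and 2 fell (fdx1b and one of the identifiers named cyp11a1). The called share was 50%, against 33.9% of all genes tested. The summed level of the list overlapped between genotypes, at 454 to 483 CPM in wild type, against 452 to 477 CPM in the mutant. Its most abundant genes moved in opposite directions. The mean of the cyp11a1 identifier that fell went from 255 to 224 CPM, and that of cyp17a1 from 144 to 166 CPM. The steroid enzyme gene cyp17a1 rose by 0.21 on the log2 scale (edgeR adjusted p = 0.00576), and cyp11c1 had no count in any library. The fdx1b call (adjusted p = 0.0403) was lost under 11 of 17 alternatives, the DESeq2 test and the replicate block among them. The hsd3b1 call was lost without wild-type replicate 2 or 3, and the cyp11a1 call without wild-type replicate 1 or mutant replicate 2. The list had 2 calls without wild-type replicate 1, without wild-type replicate 3 or without mutant replicate 2.

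Of 7 blood and immune genes tested, 3 rose (ptprc, lcp1 and coro1a) and 1 fell (cd74a). The called share was 57.1%, against 33.9% of all genes tested. The summed level of the list was 25.3 to 34.0 CPM in wild type, against 30.9 to 32.9 CPM in the mutant. The leukocyte gene ptprc rose by 1.72 on the log2 scale (edgeR adjusted p = 0.000747). The cd74a call was lost under 6 of 17 alternatives, the DESeq2 test among them. Without mutant replicate 3 this list had 2 calls. The part of these cell types in the values of ddx4, dazl and piwil1 was not tested.

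The genes most like each member were found by the root mean square difference of log2 CPM, centred on each gene's mean, over the 6 libraries. Both genotypes entered this difference, so a fold change near that of the member was built into the choice. For dazl these were ano9b (0.023), sh3yl1 (0.030) and ptgr2 (0.036), all of them called and lower in the mutant. For ddx4 they were acbd5a (0.017), si:ch211-266o15.1 (0.019) and zc3h7b (0.019), and for piwil1 taf12 (0.015), cox16 (0.025) and cask (0.027), none of which was called. No member was among the genes most like another member: the difference was 0.10 between ddx4 and piwil1, 0.18 between ddx4 and dazl, and 0.21 between dazl and piwil1.

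The members' directions held over the settings tried, of which the threshold of adjusted p under 0.01 reused the reported fit. The log2 fold change of dazl stayed between -0.47 and -0.37 over 18 alternatives, with adjusted p-values of at most 0.00627. That of ddx4 stayed between -0.15 and -0.058 and that of piwil1 between -0.11 and -0.021, and neither was called under any of the 18, with adjusted p-values of at least 0.0884 and 0.281. The value of ddx4 was nearest to 0 without wild-type replicate 2 and that of piwil1 without wild-type replicate 1, which were the highest wild-type libraries of these genes.

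**Figure D5:**
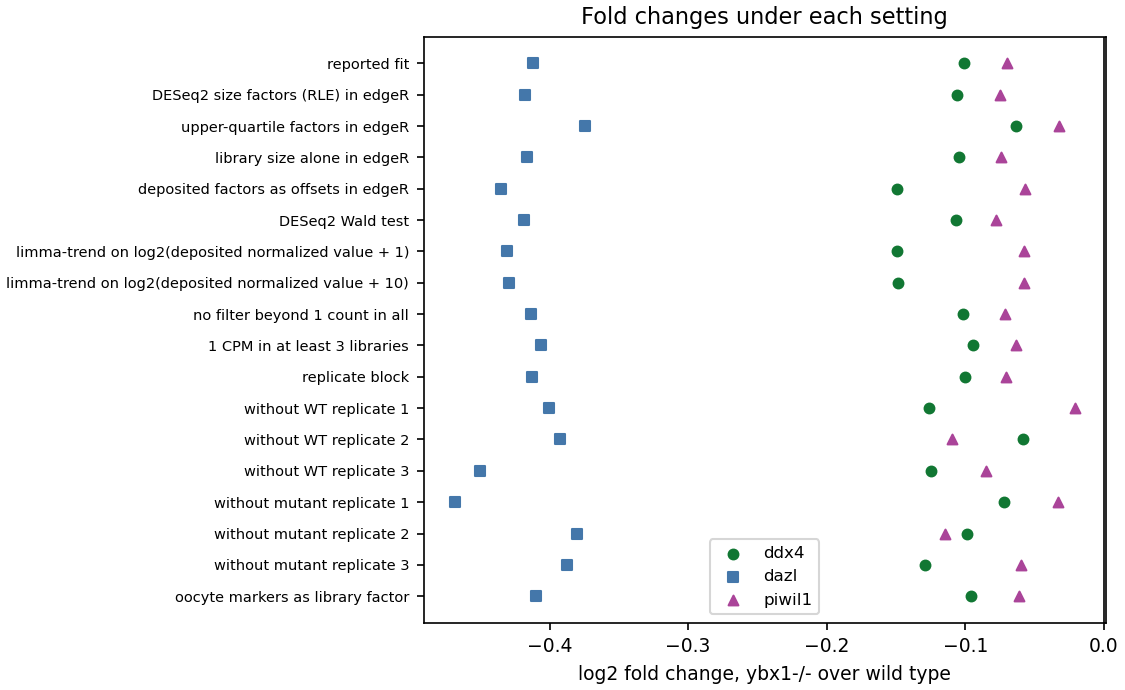
Log2 fold change of mutant over wild type for ddx4 (circles), dazl (squares) and piwil1 (triangles) under the reported fit and 17 other settings, one per line. The dazl values lie between -0.47 and -0.37, apart from those of ddx4 and piwil1, which lie between -0.15 and -0.021.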

How the data were processed

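The authors deposited whole-number counts per Ensembl gene and, in a second table, normalized values, treated here as a signal on a linear scale: the deposited counts divided by a factor per gene and library. The submitters' processing notes name bcl2fastq, FastQC 0.11.5, HISAT2, StringTie, DESeq2 and the GRCz11 build, without saying which step each served; the annotation release and counting rule are not given in the sources used here. TRIzol extraction and a directional library kit are named in the labels' protocols. The counts may be rounded estimates, which matters most near 0.

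Genotypes were compared by edgeR's quasi-likelihood test (edgeR 4.0.16, R 4.3.3) on all 6 libraries without covariates. TMM factors, filterByExpr (minimum count 10, minimum total 15) and Benjamini-Hochberg adjustment over the 17385 genes tested were used. The standard error is the estimate over the square root of F. Alternatives used other scalings, filters and thresholds, DESeq2 1.42.0, limma 3.58.1, the replicate number as a block, and each library left out. Replicates of a genotype differed beyond sampling noise (chi-square per degree of freedom 5.31 to 24.1). The fit was tested on simulated data with changes larger than those of the members, so changes of the members' size were not covered.

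Symbols were matched to identifiers regardless of case, for 161 of 208 list symbols; 4 symbols had a pair of identifiers each, and both were kept. Genes were named by rule: the members, ybx1, piwil2, the up to 4 called genes of each list with the largest change in each direction and at least 1 CPM in the higher genotype, and the 3 genes most like each member. The members and lists were chosen with earlier results of these data known. One called gene of the lists is not reported here by name, and no sequences are shown.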

Additional observations from a re-analysis of the deposited data

How the results depend on the processing

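Of 18 alternatives, all kept the direction and the side of the threshold of ddx4, dazl and piwil1. Among them, the stricter threshold reused the reported fit, so it could lose a call but not change a fold change. At an adjusted p under 0.01 the calls fell to 3521 over all genes, 2 in the germ plasm list, 4 in the piRNA list, 3 in the granulosa list, 1 in the theca list and 2 in the blood and immune list, and ybx1 (log2 fold change -0.21) was no longer called; a stricter threshold makes fewer calls by construction. With upper-quartile factors ybx1 was at -0.17 and not called. With one library left out, ybx1 ranged from -0.26 to -0.16, the ddx4 to piwil1 log2 ratio difference from -0.10 to 0.050, and calls from 2 to 5 (germ plasm), 4 to 7 (piRNA), 2 to 4 (theca) and 2 to 5 (blood and immune), with fewer libraries by construction.

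With the replicate number as a block, the oocyte list had 5 calls, ddx4, dazl and piwil1 were at -0.10, -0.41 and -0.071, and 6110 genes were called. Deviations of same-numbered libraries correlated at 0.10, 0.0302 and 0.143, against -0.125 to 0.0313 between libraries of different number. The labels do not say that the numbers pair libraries, so the reported fit used no block. Whether same-numbered libraries share a batch was not tested. Of 849 alternative values for the 50 other named genes, 798 kept their side of the threshold, 51 lost a call, most often fdx1b (11), syce2 (7), cd74a (6) and zp2l2 (5), and 0 turned. The genes most like ddx4 and piwil1 are among the 50 and had no call to lose. Most of the others were named for the largest called changes of their list. These counts therefore do not measure how stable calls are in general.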
